A study of Homo sapiens with 10 samples.

Results

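Aquaporins are membrane channels that let water follow osmotic gradients across cells. One branch of the family carries water alone or nearly so, the aquaglyceroporins AQP3, AQP7, AQP9 and AQP10 also carry glycerol, and AQP11 is a distant relative of intracellular membranes. AQP1 is best known from red cells, vascular endothelium and kidney tubules. The 10 aquaporin genes AQP1, AQP3, AQP4, AQP5, AQP6, AQP7, AQP8, AQP9, AQP10 and AQP11 are described here, out of 64940 gene entries kept from the deposited table, which include copies of some genes on alternate haplotypes. They were chosen by name from the family, and AQP1 was picked for its fall in the oeDAZL libraries, so the values of AQP1 in this contrast are a description without a test.

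The study asked what the germ cell RNA-binding protein DAZL does in human primordial germ cell-like cells (hPGCLCs) made from H9, an established human embryonic stem cell line. RNA sequencing was made from 2 control and 2 DAZL-overexpressing (oeDAZL) libraries, and levels are in TPM, a length-scaled measure of transcripts with the same total in each library, so levels are already scaled for gene length. The labels give the control genotype as wt and describe those cells as spontaneously differentiated, and give the oeDAZL cells as hPGCLCs, whereas the series design calls both groups PGCLCs. The paper's supplementary legend also calls both groups hPGCLCs, and its methods treat the cells of overexpression experiments with BMPs. The methods also transduce such cells with lentivirus. Whether the wt control libraries received a control virus or cell sorting is not settled by the sources used here. If the labels are right, overexpression and the way of differentiation cannot be told apart. The same holds for virus or sorting if the control lacked them. The labels do not say that replicates came from separate cultures, so p-values measure only the spread between these libraries, which may be technical. DAZL was listed at 0 and 0.0333 TPM in control and at 102 and 101 TPM in oeDAZL, in keeping with the group names.

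AQP1 (ENSG00000240583) lies on chromosome 7 of hg38 from 30911853 to 30925517, on the plus strand. Each control library had 103 TPM of it, and the oeDAZL libraries had 61.1 and 58.9 TPM. Both oeDAZL libraries lay below both control libraries. The means were 103 ± 0.277 TPM in control and 60.0 ± 1.58 TPM in oeDAZL (SD, n = 2 each), a mean lower by 41.7%. On the log2(TPM + 1) scale, where a pseudocount of 1 shrinks changes of low genes, the fold change of oeDAZL against control was -0.77. AQP1 ranked 2046 by mean TPM among the 16687 genes that passed the filter on low values, a mean of 1 TPM or more. In bulk RNA, fewer cells of a type and less RNA per cell cannot be told apart.

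AQP11 and AQP3 were the other members above the filter on low values, which 3 of the 10 passed. AQP11, of intracellular membranes, was at 2.44 and 1.85 TPM in control and at 2.57 and 2.77 TPM in oeDAZL. The oeDAZL values were the higher ones, by less than the gap between the control libraries at the nearest values. Its log2 fold change was 0.23 (standard error 0.20, limma adjusted p = 0.560). AQP3, a water and glycerol channel of epithelia, was at 2.49 and 1.56 TPM in control and at 1.25 and 1.78 TPM in oeDAZL. These groups overlapped. The log2 fold change of AQP3 was -0.26 (standard error 0.26, limma adjusted p = 0.601). Over all 4 libraries the mean was 2.41 TPM for AQP11 and 1.77 TPM for AQP3, far under the 81.5 TPM of AQP1.

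A gene was called if limma gave an unadjusted P-value of 0.05 or less and the fold change on the log2(TPM + 1) scale was 2 or more. Neither AQP3 nor AQP11 was called, nor did either reach that P-value alone. Of the 16687 genes tested, 20.2% reached that P-value, 65.3% had a lower mean log2 value in oeDAZL, 0.689% were called by that rule in either direction and 0.0599% had an adjusted p under 0.05. The fold change of AQP1 stayed under 2, so that it was not called either. Groups did not overlap for AQP1 and AQP11, as for 54.4% of all genes tested, and 38.4% of all genes had both oeDAZL libraries below both control libraries, so nothing is read from these arrangements. The share of genes with a lower mean depends on the scaling, at 47.7% with median-of-ratios scaling and 48.7% with quantile normalization, so the direction counts of gene lists hold for TPM as deposited.

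The other 7 members stayed under 1 TPM in every library. AQP10, a glycerol channel of the intestine, was listed at 0.275 and 0.139 TPM in control and at 0 in both oeDAZL libraries. AQP9, a glycerol and urea channel of liver, was at 0.163 and 0.0426 TPM in control and at 0 and 0.0312 TPM in oeDAZL. AQP4, the channel of astrocyte end-feet, was at 0.0398 and 0.0138 TPM in control and at 0 in oeDAZL. AQP6, an intracellular channel of the kidney, was the reverse, with 0 in control and 0.0479 and 0.0752 TPM in oeDAZL. AQP5 of glands, AQP7 of fat and AQP8 were listed at 0 in all 4 libraries. TPM keeps no read depth, so a value this low or a 0 says only how the gene is listed.

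Together the 10 members summed to 108 and 107 TPM in control and to 65.0 and 63.6 TPM in oeDAZL. AQP1 made up 95.0% and 96.6% of that sum in control and 94.1% and 92.7% in oeDAZL. Without AQP1 the sum was 5.42 and 3.61 TPM in control and 3.86 and 4.65 TPM in oeDAZL, and these groups overlapped. Of the remaining family, MIP of the eye lens was at 0.169 and 0 TPM in control and at 0 and 0.0860 TPM in oeDAZL. AQP2, the vasopressin-regulated channel of the kidney, and AQP12A and AQP12B were listed at 0 throughout. AQP7 has near-identical pseudogenes, and AQP12A and AQP12B resemble each other, so that with only uniquely mapped reads kept their values are uncertain.

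Genes around AQP1 were read next. MINDY4, a deubiquitinase gene and the nearest protein-coding neighbour before AQP1 on the same strand, was at 13.0 and 11.4 TPM in control and at 8.95 and 8.77 TPM in oeDAZL. Its log2 fold change was -0.42 (standard error 0.12, limma adjusted p = 0.155), which reached the unadjusted P-value but not the fold change of the calling rule. GHRHR, the receptor of growth hormone-releasing hormone and the neighbour on the other side, was at 1.23 and 0.771 TPM in control and at 0.665 and 0 TPM in oeDAZL, and was under the filter. An annotated read-through gene that covers the end of MINDY4 and most of AQP1 on the same strand was at 0 and 0.128 TPM in control and at 0 in oeDAZL. Reads in shared exons cannot be told apart between it and AQP1.

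Several other members share ground with a gene on the opposite strand, and whether the counting used strand is not given in the sources used here. AQP11, on chromosome 11 from 77589391 to 77610356, lies inside CLNS1A, a splicing-complex gene that was at 65.2 and 58.2 TPM in control and at 53.8 and 64.7 TPM in oeDAZL. AQP9, on chromosome 15 from 58138169 to 58185911, lies inside ALDH1A2, a retinoic acid synthesis gene that was at 2.44 and 4.55 TPM in control and at 8.26 and 7.11 TPM in oeDAZL. The log2 fold change of ALDH1A2 was 0.99 (standard error 0.25, limma adjusted p = 0.128). It reached the unadjusted P-value and fell just short of the fold change of the calling rule, while its mean TPM in oeDAZL was 2.20 times that in control. AQP6 overlaps the end of RACGAP1, a cytokinesis gene with 54.4 and 56.9 TPM in control and 57.9 and 54.4 TPM in oeDAZL. AQP4-AS1, which covers AQP4, was at 0.0365 and 0.0996 TPM in control and at 0.418 and 0.421 TPM in oeDAZL. AQP5 overlaps AQP5-AS1, listed at 0 in all 4 libraries, and AQP7 and AQP9 each overlap a long non-coding RNA gene that the table does not list. AQP9 also holds 5 processed pseudogenes on its own strand, all listed at 0. The low or 0 values of AQP4, AQP5, AQP6, AQP7, AQP9 and AQP11 are uncertain for that reason. AQP3, on chromosome 9 from 33441156 to 33447596, overlaps no annotated gene and lies between AQP7 and NOL6, a ribosome biogenesis gene at 32.3 and 35.4 TPM in control and 31.8 and 29.2 TPM in oeDAZL.

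The study reported that many miRNAs rise with DAZL overexpression and that others fall. For this reason the longest annotated 3′UTR of each of the 10 members was searched for sites of 6 of 7 planned miRNAs, all but miR-10b-5p, namely let-7a-5p, miR-199a-3p, miR-199a-5p, miR-21-5p, miR-22-3p and miR-125b-5p. An 8mer site pairs with bases 2 to 8 of the miRNA and is followed by A. AQP1, AQP3 and AQP11, in 3′UTRs of 1887, 883 and 979 bases, held no 8mer site, and no 7mer-m8 site, which lacks the last A, of any of these. The single 8mer among the 10 members was in AQP6, for miR-125b-5p, whose 8mer occurs in 5.64% of the 19248 genes with a 3′UTR. AQP4 and AQP10 had a 7mer-m8 site of the same miRNA, and sites of either kind occur in 15.7% of genes. The 10 members held 3 more 7mer-m8 sites, of let-7a-5p in AQP6, of miR-199a-5p in AQP7 and of miR-22-3p in AQP9, where sites of either kind occur in 10.6%, 13.2% and 14.9% of genes. All of these genes were at or near 0 in these libraries, and a match of letters is no evidence of binding. The mature miRNA (RefSeq, GRCh38.p14) is printed with its seed in capitals, and the 3′UTR stretches (hg38) with the site in capitals, 5′ to 3′.
miR-125b-5p: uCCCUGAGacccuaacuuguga
AQP6, plus strand of chromosome 12, site 49976044 to 49976051: gctatagggacCTCAGGGAgccccagcttc
AQP4, minus strand of chromosome 18, site 26854476 to 26854482: caggcccctttCTCAGGGggcgtggccaca
AQP10, plus strand of chromosome 1, site 154324718 to 154324724: gttttctgaccCTCAGGGcctctcggaatg

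Genes that work beside aquaporins in cell volume and osmotic control, such as the NFAT5 response, volume-regulated anion channels and cation-chloride cotransporters, were read as a list. Of its 21 genes 20 were tested, 13 with a lower and 7 with a higher mean log2 value in oeDAZL. None was called by limma, and 4 had an unadjusted P-value of at most 0.05, 1 higher and 3 lower, so that both counts are near the shares over all genes, 65.3% lower and 20.2% at that P-value. The list's median log2 fold change was -0.05, beside -0.08 over all genes tested. Both medians turned positive with median-of-ratios scaling, to 0.05 beside 0.01, and with quantile normalization, to 0.02 beside 0.01. Both stayed negative when rescaled without mitochondrial genes, at -0.03 beside -0.06. The sign of the list's median thus followed that of the whole table under each of these. SLC6A6, the taurine transporter, was at 305 and 319 TPM in control and at 309 and 327 TPM in oeDAZL. AKR1B1, the aldose reductase that makes sorbitol, was at 117 and 125 TPM in control and at 119 and 113 TPM in oeDAZL. SLC12A4, a potassium-chloride cotransporter, was at 93.4 and 89.3 TPM in control and at 73.3 and 77.6 TPM in oeDAZL, with a limma adjusted p = 0.116.

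For glycerol metabolism, 6 of 8 genes were tested and none was called by limma. The unadjusted P-value was at most 0.05 for 1 of the 6, beside 20.2% of all genes. Their median log2 fold change was -0.14, beside -0.08 over all genes, and came to -0.05 with median-of-ratios scaling and -0.08 with quantile normalization. PNPLA2, the triglyceride lipase, was at 55.8 and 49.8 TPM in control and at 44.8 and 45.6 TPM in oeDAZL, GPD2 at means of 25.7 ± 0.996 TPM against 24.6 ± 1.28 TPM (SD, n = 2 each), and MGLL at 2.36 and 5.40 TPM against 4.74 and 3.99 TPM. The anchoring partners of aquaporins, 5 of 6 tested and none called, had a median of 0.05, which ranged from -0.08 to 0.11 with a library left out, and 1 of the 5 had an unadjusted P-value of at most 0.05. Among them EZR, which links membrane proteins to actin, was at 939 and 896 TPM in control and at 870 and 905 TPM in oeDAZL. DAG1 was at 342 and 361 TPM in control and at 380 and 376 TPM in oeDAZL. DTNA, a dystrophin-complex gene, was at 7.15 and 11.7 TPM in control and at 20.1 and 13.9 TPM in oeDAZL, with a limma adjusted p = 0.176. Of 9 small solute and gas genes 3 were tested and none was called, with 1 of the 3 at an unadjusted P-value of at most 0.05 and a median of -0.02 that ranged from -0.19 to 0.15 with a library left out. Over all genes 20.2% reached that P-value, so nothing is read from 1 of 5 or 1 of 3. With 5 and 3 genes tested, neither of these lists has a settled direction. CA2, a carbonic anhydrase, was at 26.6 and 20.8 TPM in control and at 32.8 and 32.8 TPM in oeDAZL (limma adjusted p = 0.138). CA4 was at 3.09 and 1.45 TPM against 1.86 and 1.11 TPM, and SLC4A4 at 1.56 and 1.01 TPM against 0.992 and 1.52 TPM.

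**Figure D1:**
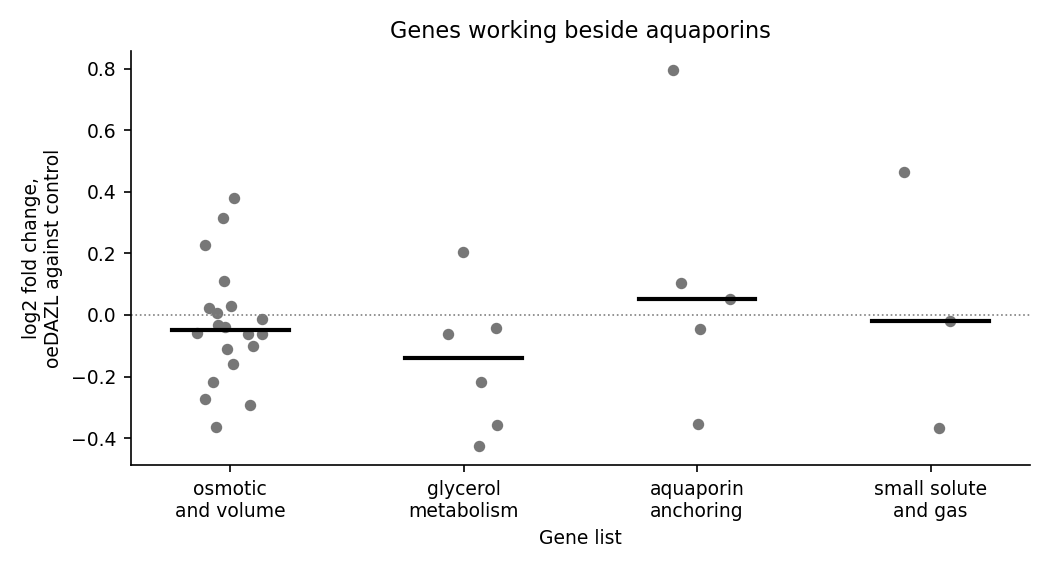
Log2 fold change of oeDAZL against control for each tested gene (points) of the lists that work beside aquaporins, with each list's median (line). No gene is called and the medians lie between -0.14 and 0.05.

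AQP1 is expressed in several cell types, so markers of those and of the intended cells were read beside it. Endothelial markers, 5 of 10 tested, summed to 49.4 and 53.4 TPM in control and to 39.2 and 41.6 TPM in oeDAZL. Of the 5, 3 had a lower and 2 a higher mean log2 value in oeDAZL, beside 65.3% lower over all genes. The unadjusted P-value was at most 0.05 for 2 of the 5, EGFL7 and KDR, both lower, beside 20.2% of all genes. The list's median log2 fold change of -0.29 turned to 0.14 without control replicate 2, so the list has no settled direction. EGFL7 was the most abundant, KDR was at 12.6 and 12.7 TPM in control and at 8.39 and 8.23 TPM in oeDAZL, TEK was at 5.34 and 6.18 TPM against 5.57 and 6.72 TPM, and PECAM1 and EMCN were listed at 0. Erythroid markers, 1 of 10 tested, summed to 2.35 and 1.81 TPM in control and to 1.93 and 2.05 TPM in oeDAZL. ALAS2 led them by the mean over the libraries, though not in the first control library, and HBA1 and HBA2 stayed under 1 TPM in every library. Mesenchymal markers, 10 of 10 tested, summed to 3035 and 2917 TPM in control and to 2049 and 2099 TPM in oeDAZL, with COL1A2 the most abundant. Of these 9 had a lower mean log2 value in oeDAZL, beside 65.3% of all genes, and 2 were called lower, beside 0.563% of all genes. At an unadjusted P-value of at most 0.05 were 7 of the 10, all lower, beside 20.2% of all genes. The lists were chosen with earlier results of these data known, so these counts are a description and no test of the list. The called markers were the collagen COL3A1 (583 and 479 TPM against 224 and 220 TPM, log2 fold change -1.25, limma adjusted p = 0.0344) and DCN (log2 fold change -1.08, standard error 0.22). The part of these cell types in the AQP1 values was not tested.

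Epithelial markers, all 8 tested, summed to 18076 and 18755 TPM in control and to 20244 and 20087 TPM in oeDAZL, with KRT8 the most abundant and KRT18 and KRT19 next. These keratins carry the sum, as 4 of the 8 had a lower and 4 a higher mean log2 value in oeDAZL, with a median log2 fold change of 0.06. This split depends on the scaling, with 1 lower and 7 higher after median-of-ratios scaling and 5 lower and 3 higher after quantile normalization. The median came to 0.16 with median-of-ratios scaling and to -0.005 with quantile normalization. As analysed, 3 of the 8 had an unadjusted P-value of at most 0.05, 2 higher and 1 lower, beside 20.2% of all genes. Amnion and trophoblast markers, 10 of 10 tested, summed to 3615 and 3462 TPM in control and to 3660 and 3708 TPM in oeDAZL, with GABRP the most abundant by the mean over the libraries. Within oeDAZL, HAND1 and GABRP were level, at means of 1249 and 1248 TPM. A lower mean log2 value in oeDAZL was found for 7 of the 10, near the 65.3% of all genes. With median-of-ratios scaling it was found for 5 of the 10, beside 47.7% of all genes, and with quantile normalization for 7, beside 48.7%. The unadjusted P-value was at most 0.05 for 5 of the 10, 4 lower and 1 higher, beside 20.2% of all genes. CGA was called lower (log2 fold change -1.18, limma adjusted p = 0.0896). Markers of primordial germ cells, 9 of 10 tested, summed to 187 and 185 TPM in control and to 185 and 187 TPM in oeDAZL. Of the 9, 8 had a lower mean log2 value in oeDAZL, beside 65.3% of all genes, and 6 had with median-of-ratios scaling or quantile normalization. Their median log2 fold change was -0.13, beside -0.08 over all genes. It came to -0.03 with median-of-ratios scaling and -0.07 with quantile normalization, beside 0.01 over all genes with each. With a library left out it ranged from -0.25 to -0.04. PDPN alone had a higher value as analysed, at 32.9 and 49.7 TPM in control and 58.5 and 52.5 TPM in oeDAZL, which kept the sum level. PDPN was also the 1 gene of the 9 with an unadjusted P-value of at most 0.05, beside 20.2% of all genes. By the mean over the libraries SOX15, TFAP2C and PDPN led the list, and SOX17 and NANOS3 were low. Pluripotency markers, 5 of 8 tested and none called, summed to 546 and 495 TPM in control and to 497 and 477 TPM in oeDAZL, with LIN28A ahead of DPPA4 and POU5F1. POU5F1 was at 13.6 and 10.6 TPM in control and at 22.4 and 20.4 TPM in oeDAZL, a log2 fold change of 0.79 (standard error 0.14, limma adjusted p = 0.0896) that was not called. TDGF1 was likewise higher by 0.82, while the other 3, LIN28A, DPPA4 and SOX2, had lower mean log2 values. POU5F1 and TDGF1 were the 2 of the 5 with an unadjusted P-value of at most 0.05, beside 20.2% of all genes. The list's median was -0.11, beside -0.08 over all genes. It came to -0.01 with median-of-ratios scaling, to -0.06 with quantile normalization and to 0.34 where a mean TPM of at least 5 left 4 genes tested. Neural and glial markers, 3 of 8 tested, summed to 52.2 and 49.7 TPM in control and to 54.4 and 48.9 TPM in oeDAZL, with SLC1A3 the most abundant. PAX6 was called lower, at 3.83 and 1.14 TPM in control and at 0.0967 and 0.558 TPM in oeDAZL (log2 fold change -1.30, limma adjusted p = 0.189). Without the first control library the log2 fold changes of PAX6, CGA and DCN came to -0.71, -0.92 and -0.80 and were not called, so these calls rest on that library, whereas COL3A1 was still called at -1.10. PAX6 was also not called with no filter on TPM or without the first oeDAZL library, nor DCN with median-of-ratios scaling or quantile normalization, while COL3A1 was called under every setting by the unadjusted P-value. Its limma adjusted p was 0.322 with no filter, 0.222 without limma's trend, 0.0570 with median-of-ratios scaling and 0.0644 with quantile normalization, so it was under 0.05 only under the other settings.

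**Figure D2:**
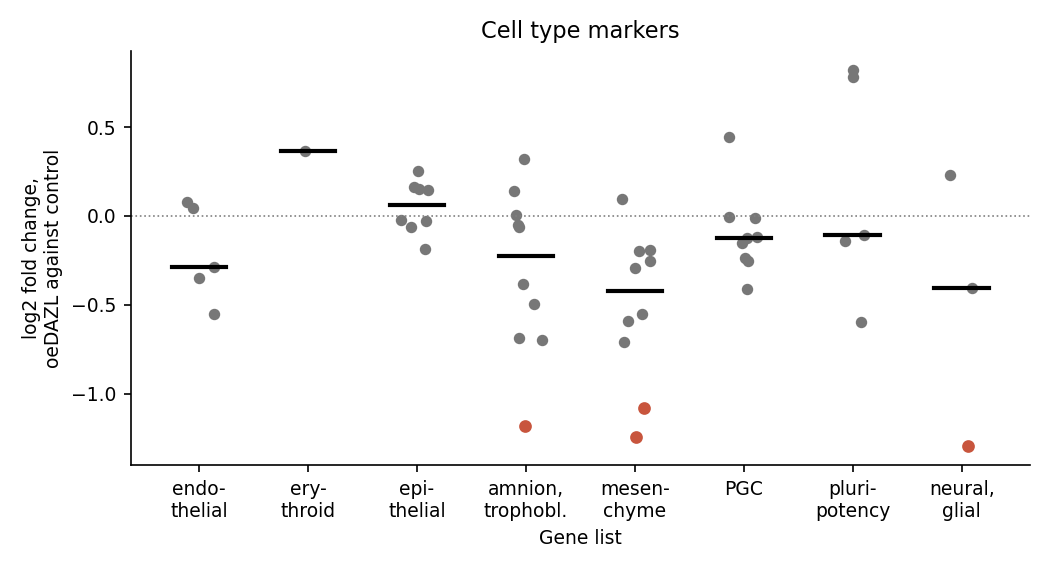
Log2 fold change of oeDAZL against control for each tested marker gene (points; red, called genes) with the median of each list (line). The 4 called markers, CGA, COL3A1, DCN and PAX6, are lower in oeDAZL, and only COL3A1 is called without the first control library.

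The tested genes whose centred log2(TPM + 1) profiles over the 4 libraries lay closest to AQP1, by Euclidean distance, were FAM86GP, YEATS2-AS1, AC008555.1, TENM2 and SCCPDH. FAM86GP, a pseudogene, was at 1.75 and 1.74 TPM in control and at 0.651 and 0.638 TPM in oeDAZL, at a distance of 0.04. YEATS2-AS1 was at a distance of 0.05, AC008555.1 at 0.07, and TENM2, a cell adhesion gene, and SCCPDH at 0.08 each. SCCPDH was at 17.7 and 17.1 TPM in control and at 9.64 and 9.94 TPM in oeDAZL. These were the nearest of 16687 genes over 4 libraries, and nothing about shared function follows.

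**Figure D3:**
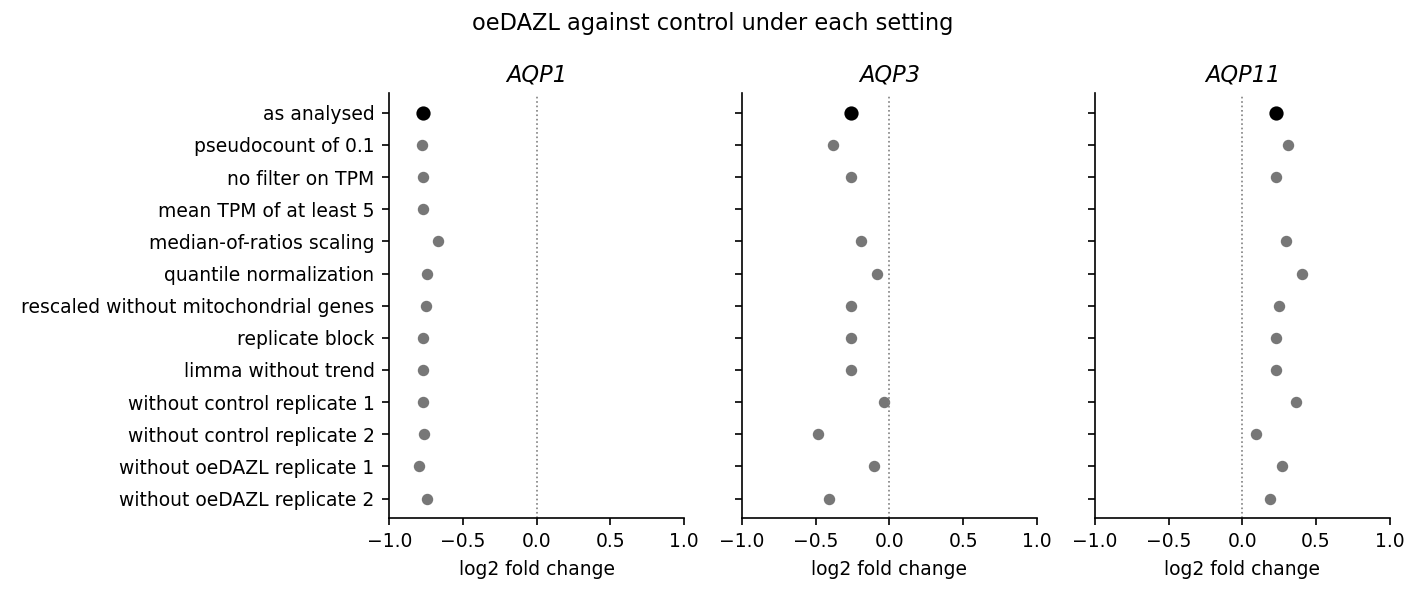
Log2 fold change of oeDAZL against control for AQP1, AQP3 and AQP11 under the analysis as made (black) and each other setting (grey). AQP1 lies between -0.80 and -0.67, AQP3 between -0.48 and -0.04 and AQP11 between 0.09 and 0.40 over the other settings, and AQP3 and AQP11 have no point where the filter was a mean TPM of at least 5.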

How the data were processed

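The data are RNA sequencing libraries of H9-derived cells, 2 control and 2 oeDAZL. The authors deposited TPM per gene, from reads trimmed, mapped uniquely to hg38 with HISAT2 2.1.0 and quantified with StringTie 2.1.4 per the paper's methods and the submitters' notes. The annotation release is not given in the sources used here. TPM keeps no depth, so no interval or floor was computed. From 65003 entries, 45 copies of pseudoautosomal genes on Y and 18 repeats of a gene were dropped. The 16687 genes whose mean reached 1 TPM were fitted on log2(TPM + 1) with limma 3.58.1 in R 4.3.3 (lmFit, eBayes with trend), with no covariates and Benjamini-Hochberg adjustment over all of them. The fit was tested on simulated data. With 2 libraries against 2, exact permutation gives no p under 0.333. Positions and 3′UTRs came from GENCODE on the same build, the 3′UTR being the bases after the stop codon of the transcript with the longest one.

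Where a gene of a list had several entries of its name, the entry of the primary assembly in GENCODE was taken, which concerned POU5F1 and SLC12A7. The members and lists were chosen with earlier results of these data known. Genes were named by rule: the members, DAZL, the rest of the family, from each list the called genes or otherwise the 3 with the highest mean TPM, genes overlapping a member, neighbours of AQP1 and AQP3, and the 5 profiles nearest to AQP1. EGFL7, HBA1, SOX17, NANOS3 and other markers beyond that rule were named for their level or direction, after the values were seen. Protein features were planned but not analysed here. Alternatives were other pseudocounts, filters and scalings, a replicate block, limma without trend, each library left out, and other miRNA sites. miRNA sequencing of the series (6 samples) was not analysed here.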

Additional observations from a re-analysis of the deposited data

How the results depend on the processing

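AQP1 was picked for its fall, so its direction under other settings is no test. Its log2 fold change ranged from -0.80 to -0.67 over the 12 other settings. It was -0.74 after quantile normalization and -0.67 when the libraries were scaled by median of ratios. Leaving out a library or a pseudocount of 0.1 cannot turn the sign of AQP1 or AQP11, whose groups did not overlap. Of the 12 settings, 4 (no filter, a mean of 5 TPM, the replicate block and limma without trend) cannot alter a fold change. AQP3 and AQP11, whose fold changes 3 of those cannot alter either, kept their direction and stayed outside the limma threshold under the 11 settings that gave them a value, with adjusted p between 0.302 and 0.962 for AQP3 and between 0.327 and 0.847 for AQP11. A mean TPM of at least 5 left both untested. No aquaporin was called under any setting.

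Counts of calls moved more, and the cause was not tested. Against 94 lower and 21 higher, a pseudocount of 0.1 gave 267 and 55, a mean TPM of at least 5 gave 23 and 6, quantile normalization 52 and 41, and an adjusted p 2 and 3. The share of lower calls was 81.7% as analysed and 55.9% with quantile normalization. The 10 genes with an adjusted p under 0.05 became 1 with no filter, 3 with median-of-ratios scaling or quantile normalization, and 1 without limma's trend. Rescaling without mitochondrial genes, which made up 12.6% and 13.4% of TPM in control and 14.1% and 13.9% in oeDAZL, gave 9.

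With each library left out in turn, where the lone library is assumed to vary like the other group, lower calls ranged from 85 to 235, higher calls from 35 to 87, adjusted calls from 2 to 673, called markers from 1 to 6 and called genes of the function lists from 0 to 1. Control replicate 2 decided the upper end of the calls, with 235 lower, 87 higher and 673 adjusted without it. The mesenchymal median of -0.42 ranged from -0.57 to -0.39, and median-of-ratios scaling gave -0.32. The volume list's median of -0.05 turned to 0.0492 with median-of-ratios scaling and to 0.0161 with quantile normalization, as the median of all genes moved from -0.08 to 0.01 with each. That of the solute and gas list became 0.46 when the filter of 5 TPM left CA2 alone in it, so this value is the log2 fold change of CA2. With an adjusted p, 1 marker was called in place of 4. Adding 7mer-m8 sites raised the aquaporins with a site from 1 to 5.

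The replicate number as a block left 4 adjusted calls in place of 10, with 99 lower and 26 higher. Deviations of same-numbered libraries correlated at -0.10 across genes, and the crossed pairing, chosen after seeing the data, gave 107 lower, 28 higher and 1089 adjusted calls. Depth is unknown, so low values have no error of their own.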

Other observations

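AQP7P1, a pseudogene of AQP7 named after its values were seen, was listed at 0.288 and 0 TPM in control and at 0.373 and 0.125 TPM in oeDAZL, whereas AQP7 itself was at 0 in all 4 libraries. Genes with 1 TPM or more numbered 17239 and 16852 in control and 16342 and 16428 in oeDAZL.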
